A study of Mus musculus with 3 samples.

Results

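The genes described here are the cytochrome P450 genes of the mouse, taken as all genes whose symbol begins with Cyp and a digit among the named probes of the array. They numbered 77 of 17349 genes with a probe, and 80 probes stood for them. RNA of sinonasal mucosa, which lines the nasal cavity and its sinuses, came from C57BL/6 mice of 6 to 8 weeks of age in 3 groups. The group control_WT held wild-type mice without disease, ECRS_WT wild-type mice with an allergic form of eosinophilic chronic rhinosinusitis, and ECRS_KO mice with that disease and a knockout of CC10, the club cell secretory protein encoded by Scgb1a1. Each group was measured on a single array, 1 pool made of equal amounts of RNA from 5 mice, so no value below has a replicate error and no difference a test. The agent that induced the disease is not given in the sources used here.

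Cytochromes P450 are haem proteins, most of them anchored in the endoplasmic reticulum, that insert an oxygen atom into their substrates with electrons from a reductase. Families numbered in the symbol with the lowest digits act mainly on drugs, solvents and plant or combustion products, family 4 on fatty acids and eicosanoids, and the higher families on steroids, sterols, vitamin D and retinoic acid. The nose is rich in these enzymes. They lie chiefly in supporting cells and Bowman's glands of the olfactory epithelium and in secretory cells of the respiratory epithelium, where they clear odorants and also turn some inhaled compounds into toxic products.

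The arrays differed in brightness, with mean signals of 295, 373 and 465 on the control_WT-, ECRS_WT- and ECRS_KO-labelled arrays. The targeted gene Scgb1a1 was not detected on the control_WT-labelled array, at a signal of 3.32, and was detected on the ECRS_WT- and ECRS_KO-labelled arrays, at 493 and 597. These values go against 2 of the 3 labels, unless the probe lies outside the deleted part of the gene in the case of ECRS_KO, and every direction below rests on the labels. Below, a signal is the non-normalized brightness of a probe. A level is the log2 of the background-corrected and quantile-normalized signal, and a difference is one of levels. Detection means a p-value of less than 0.01 for brightness above the array's background.

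Of the 77 P450 genes, 24 were detected on all 3 arrays, 8 on 1 or 2 of them and 45 on none. The share detected on any array was 41.6%, against 53.4% of all genes. The markers given for the set, Cyp2f2, Cyp2g1 and Cyp2b10, were each detected on all 3 arrays. The signals of genes detected on no array ran from -27.1 to 89.9, and for them only a lack of detection at this brightness can be stated. On the control_WT-, ECRS_WT- and ECRS_KO-labelled arrays, 27, 28 and 27 P450 genes were detected.

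By role, of 10 genes of the subfamilies 2a, 2b, 2f, 2g, 2s and 2ab, 7 were detected on at least 1 array, and of 28 genes of the other subfamilies of family 2, 6 were. Among the latter only Cyp2c66, Cyp2d22 and Cyp2e1 were detected on all 3 arrays, and all but 1 of 8 Cyp2d genes and all but 1 of 7 Cyp2j genes were detected on none. Family 1 had 2 of 3 genes detected and family 3 had 1 of 4. Family 4 had 10 of 16 detected, and the genes of sterol and bile acid synthesis 4 of 7. None of the 4 genes of steroid hormone synthesis was detected by its brighter probe, although a second probe of Cyp11a1, the enzyme that starts steroid synthesis from cholesterol, was detected on the control_WT-labelled array at a signal of 16.9. Of 4 genes of vitamin D and retinoic acid turnover, Cyp26b1 was detected and Cyp24a1, Cyp26a1 and Cyp27b1 were not.

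**Figure D1:**
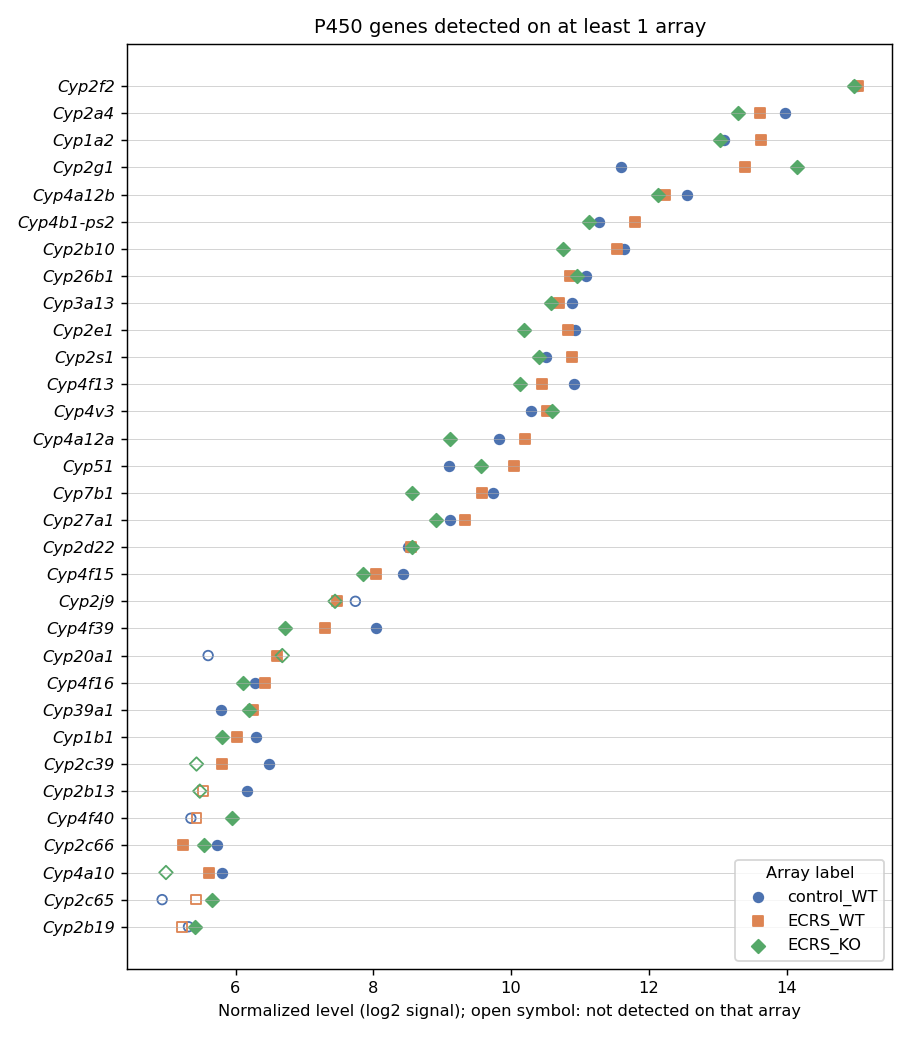
Normalized level on the log2 scale (x axis) of the 32 P450 genes detected on at least 1 array (y axis), ordered by mean level. Circles, squares and diamonds are the single arrays labelled control_WT, ECRS_WT and ECRS_KO, and open symbols mark arrays on which the gene was not detected. Most genes lie close together on the 3 arrays, whereas Cyp2g1 spans 11.60 to 14.15.

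The tissue was checked against markers of cells that the sample should and should not hold. All 10 olfactory neuron markers were detected, among them Omp at signals of 10088, 12381 and 15646 on the control_WT-, ECRS_WT- and ECRS_KO-labelled arrays. Of 8 hepatocyte markers 3 were detected, with summed signals over all 8 of 130, 157 and 118, and albumin (Alb) was detected on no array. Of 5 alveolar markers 2 were detected, with summed signals between 50.4 and 94.6, and of 4 adrenal and gonadal markers 3, between 180 and 266. The hepatocyte and alveolar sums are lowered by negative signals of markers not detected. Sftpc alone had signals of 61.5, 60.1 and 84.2 on the control_WT-, ECRS_WT- and ECRS_KO-labelled arrays, and Apoa1 56.5, 70.8 and 107.

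Of the 32 P450 genes detected, 8 lie on chromosome 7, 7 of them in one run of neighbouring genes. RefSeq places 17 genes and pseudogenes of subfamilies 2a, 2b, 2f, 2g, 2s and 2t in that run, and 9 of them had a probe. Cyp2f2 encodes an enzyme abundant in club cells and nasal epithelium that activates naphthalene and styrene. Its signal was 33182 on the control_WT-labelled array, 33235 on the ECRS_WT-labelled array and 31894 on the ECRS_KO-labelled array. Its levels of 15.02, 15.03 and 14.98 differed by 0.01 between ECRS_WT and control_WT and by -0.05 between ECRS_KO and ECRS_WT. The non-normalized signals were close too, and in the authors' deposited values these differences were -0.11 and -0.08. Under median scaling they were -0.29 and -0.32. Between ECRS_KO and control_WT the difference was -0.18 in the authors' values and -0.61 under median scaling, so the closeness varied with the scaling. The highest signals of any probe on these arrays were 41740, 45825 and 47350, and whether differences of a probe as bright as Cyp2f2 are compressed was not tested.

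Cyp2g1, known as a P450 of the olfactory mucosa made by supporting cells and Bowman's glands, had the widest range of all P450 genes detected on all 3 arrays. The signal was 2375 on the control_WT-labelled array, 10424 on the ECRS_WT-labelled array and 20682 on the ECRS_KO-labelled array. The levels were 11.60, 13.39 and 14.15. Cyp2g1 was thus lowest on the control_WT-labelled array and highest on the ECRS_KO-labelled array.

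Cyp2a4 belongs to a pair of closely related steroid and coumarin hydroxylases, of which the array annotation names a probe only for Cyp2a4 and none for Cyp2a5. Its signals were 13607, 12611 and 12015 on the control_WT-, ECRS_WT- and ECRS_KO-labelled arrays, and its levels 13.98, 13.61 and 13.30. Whether this probe also reads Cyp2a5 was not tested. Cyp2b10, the P450 best known for its induction by phenobarbital in liver, had signals of 2437, 2896 and 2213 and levels of 11.64, 11.54 and 10.75. A second probe of Cyp2b10 was detected only on the ECRS_WT- and ECRS_KO-labelled arrays, at signals of 60.1 and 42.9. It differed by 1.01 between the ECRS_WT- and control_WT-labelled arrays where the first probe differed by -0.10, so the 2 probes did not follow each other there. Between ECRS_KO and ECRS_WT they differed alike, by -0.71 and -0.79.

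Cyp2s1, a P450 of airway and other surface epithelia, had signals of 1048, 1825 and 1726 on the control_WT-, ECRS_WT- and ECRS_KO-labelled arrays. Its levels of 10.51, 10.89 and 10.40 stayed within 0.49 of each other. Cyp2b13 was detected only on the control_WT-labelled array, at a signal of 31.1, and Cyp2b19, a P450 of keratinocytes, only on the ECRS_KO-labelled array, at 33.0. Cyp2b9 and Cyp2a12 of the same chromosomal run were detected on none, and neither was Cyp2ab1, which lies elsewhere.

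**Figure D2:**
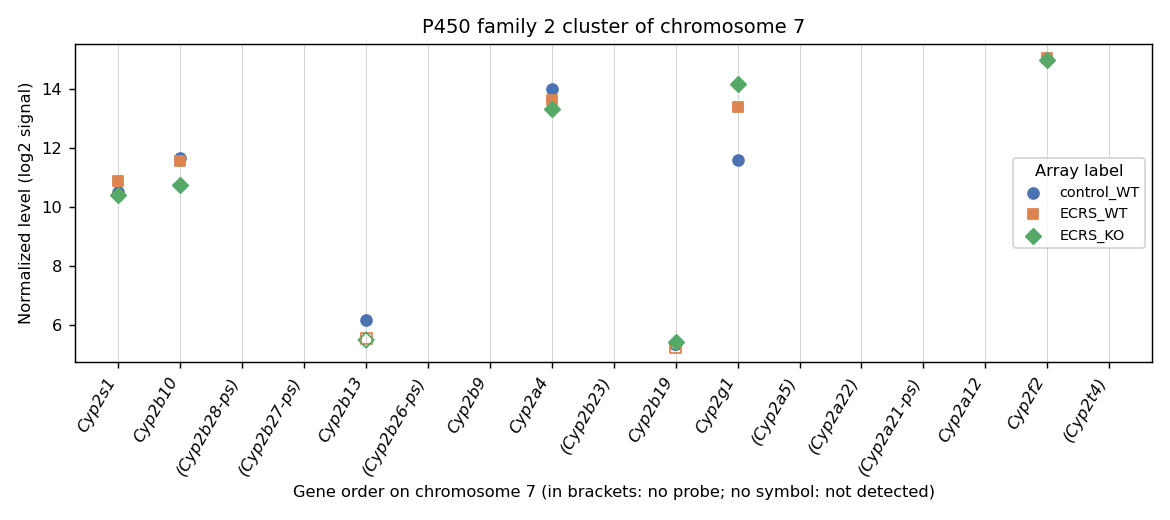
Normalized level on the log2 scale (y axis) of the run of neighbouring P450 genes on chromosome 7, in the order given by RefSeq (x axis), with 1 symbol for each array. Cyp2e1 and Cyp2r1, also on chromosome 7, lie outside this run and are not shown. Names in brackets have no probe, a name without a symbol was not detected, and open symbols mark arrays without detection. Cyp2g1 differs between the arrays, from 11.60 to 14.15, while Cyp2f2 lies between 14.98 and 15.03 after quantile normalization.

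Upstream sequence is not shown for every detected gene of the run on chromosome 7, and Cyp2s1 is among those left out. The upstream sequences shown are those of Cyp2f2, Cyp2a4 and Cyp2b10, of Cyp2a5, which has no named probe, and of Cyp1a2 on chromosome 9. They are the 250 bases before the annotated start, 5′ to 3′ on the gene's strand, from RefSeq on GRCm38.p6, at chr7:27119705-27119954 on the plus strand for Cyp2f2, chr7:26306942-26307191 on the plus strand for Cyp2a4, chr7:26835089-26835338 on the plus strand for Cyp2a5, chr7:25897408-25897657 on the plus strand for Cyp2b10 and chr9:57683656-57683905 on the minus strand for Cyp1a2. Capitals mark TATAAA, the TATA box, and TTGGCA, a half-site of nuclear factor I, on either strand; CCAAT was searched too and overlaps TTGGCA where its reverse complement precedes CA.
Cyp2f2: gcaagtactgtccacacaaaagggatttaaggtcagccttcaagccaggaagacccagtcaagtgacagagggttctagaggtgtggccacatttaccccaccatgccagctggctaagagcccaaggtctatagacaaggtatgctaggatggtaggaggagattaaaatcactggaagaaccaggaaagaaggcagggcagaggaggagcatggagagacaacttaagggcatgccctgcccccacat
Cyp2a4: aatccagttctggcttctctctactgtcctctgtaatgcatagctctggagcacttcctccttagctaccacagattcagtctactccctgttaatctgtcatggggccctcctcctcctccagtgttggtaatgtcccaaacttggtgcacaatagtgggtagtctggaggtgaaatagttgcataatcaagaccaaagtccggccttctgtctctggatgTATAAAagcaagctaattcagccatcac
Cyp2a5: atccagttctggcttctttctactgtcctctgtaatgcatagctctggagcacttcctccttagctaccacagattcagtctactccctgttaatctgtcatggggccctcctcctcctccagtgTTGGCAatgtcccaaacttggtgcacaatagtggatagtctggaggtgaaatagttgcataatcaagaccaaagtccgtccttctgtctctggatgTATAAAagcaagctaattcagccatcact
Cyp2b10: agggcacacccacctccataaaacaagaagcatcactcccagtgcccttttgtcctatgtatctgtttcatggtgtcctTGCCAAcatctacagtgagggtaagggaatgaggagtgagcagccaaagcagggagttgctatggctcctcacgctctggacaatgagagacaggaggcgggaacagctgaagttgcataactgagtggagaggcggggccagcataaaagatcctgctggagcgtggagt
Cyp1a2: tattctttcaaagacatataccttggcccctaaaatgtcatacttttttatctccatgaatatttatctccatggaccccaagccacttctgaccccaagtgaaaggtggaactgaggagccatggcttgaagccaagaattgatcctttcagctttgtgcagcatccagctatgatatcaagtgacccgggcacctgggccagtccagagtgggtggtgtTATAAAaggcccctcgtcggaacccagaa

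With a shift of 1 base the windows of Cyp2a4 and Cyp2a5 were the same at 245 of 249 positions. The differences were C19T, T131C, G161A and G205T, with positions counted from the 5′ end of the Cyp2a4 window, the Cyp2a4 base first and the Cyp2a5 base last. T131C lies in the TTGGCA of Cyp2a5, which the Cyp2a4 window does not hold. TATAAA stood 28 bases before the start of Cyp2a4 and 29 bases before those of Cyp2a5 and Cyp1a2. The Cyp2f2 window held none of the 3 motifs, and CCAAT was in none of the 5 windows shown. Over 54 P450 genes with a probe and an entry, 21 of 61 windows held TATAAA (34.4%), 11 TTGGCA (18.0%) and 26 CCAAT (42.6%). Over all 32851 windows of the same length these shares were 12.4%, 12.3% and 33.8%. The P450 shares include genes detected on no array. Of 26 windows of P450 genes detected on at least 1 array, 6 held TATAAA, 5 TTGGCA and 8 CCAAT. A match is a description of these letters and no evidence of binding. Cyp2g1 had no entry.

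Beyond this run, Cyp1a2 of family 1, which oxidises caffeine and aromatic amines and is best known from liver, was detected with signals of 7091, 12826 and 10245 on the control_WT-, ECRS_WT- and ECRS_KO-labelled arrays. Its levels were 13.09, 13.63 and 13.03, highest on the ECRS_WT-labelled array. Cyp1b1, a P450 of tissues outside the liver, was dim at signals of 34.6, 45.2 and 53.2. Cyp1a1, the usual marker of the aryl hydrocarbon receptor response, was detected on no array. Cyp2e1, which oxidises ethanol and small solvents, had signals of 1404, 1747 and 1490 and levels of 10.92, 10.83 and 10.18. Cyp3a13, the only gene of family 3 detected, had signals of 1358, 1591 and 1953, and Cyp2d22 had signals of 224, 347 and 490 with levels between 8.50 and 8.56. Cyp2c66 was detected on all 3 arrays, at signals of 39.4 and lower.

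Of the family 4 enzymes, which hydroxylate the far end of fatty acids, Cyp4a12b had signals of 4694, 4739 and 5562, and its levels of 12.56, 12.23 and 12.13 were highest on the control_WT-labelled array. Cyp4a12a, a closely related arachidonic acid hydroxylase, had signals of 621, 1137 and 721 and levels of 9.83, 10.21 and 9.11. Whether either probe also reads the other gene was not tested. Cyp4b1-ps2, annotated as a pseudogene of Cyp4b1, had signals of 1866, 3485 and 2867, with levels of 11.28, 11.81 and 11.13. Cyp4b1 itself has no named probe, and whether that of the pseudogene reads it was not tested. Cyp4f13, with levels of 10.91, 10.45 and 10.12, and Cyp4v3, a fatty acid hydroxylase with levels of 10.28, 10.53 and 10.59, ran in opposite orders over the arrays. Cyp4f39, the mouse counterpart of a human enzyme that makes very long hydroxy fatty acids for the skin barrier, had signals of 157, 136 and 128 and levels of 8.04, 7.30 and 6.72.

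Among enzymes of sterols, Cyp51, which demethylates lanosterol on the way to cholesterol, had signals of 357, 1006 and 983 on the control_WT-, ECRS_WT- and ECRS_KO-labelled arrays. Its levels were 9.10, 10.04 and 9.56, lowest on the control_WT-labelled array. Cyp7b1, which hydroxylates oxysterols, had signals of 576, 725 and 491 and levels of 9.73, 9.58 and 8.57, lowest on the ECRS_KO-labelled array. The mitochondrial sterol hydroxylase gene Cyp27a1 had levels of 9.12, 9.33 and 8.91, and Cyp39a1, a further oxysterol hydroxylase, was dim at signals of 22.4, 55.7 and 80.0. Cyp26b1, which breaks down retinoic acid, had signals of 1597, 1789 and 2571 and levels between 10.86 and 11.09.

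Cyp4f15 was detected on all 3 arrays at signals of 213, 241 and 293, and Cyp4f16 at 34.1, 65.8 and 72.7. Other members were detected on 1 or 2 arrays. Cyp20a1, an enzyme without a settled substrate, was detected only on the ECRS_WT-labelled array, at a signal of 76.2, although its signal of 124 on the ECRS_KO-labelled array was higher. Cyp2j9 was likewise detected only on the ECRS_WT-labelled array, at 156, with signals of 122 and 222 on the control_WT- and ECRS_KO-labelled arrays. The detection p-value did not fall steadily with the signal in these files, so lack of detection is not always low brightness. Cyp2c39 and Cyp4a10 were detected on the control_WT- and ECRS_WT-labelled arrays, at signals between 22.6 and 40.2. Cyp4f40 and Cyp2c65 were detected only on the ECRS_KO-labelled array, at signals of 62.5 and 45.0.

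The comparison of ECRS_WT with control_WT concerns the disease in wild-type mice. Cyp2g1 was the single P450 gene at least 2-fold higher, at 3.45-fold (1.79 on the log2 scale), and no P450 gene was at least 2-fold lower. Cyp51 was 1.91-fold higher. Cyp20a1 was 1.996-fold higher than its own level of 5.60 on the control_WT-labelled array, where it was not detected. Next came Cyp1a2 at 1.45-fold and Cyp4b1-ps2 at 1.44-fold, whereas Cyp4f39 was 1.67-fold lower and Cyp2c39 1.59-fold lower. Of 29 P450 genes measured, that is detected on either array, 1 was thus higher and none lower. Of all 8766 genes measured, 3.76% were called higher and 1.4% lower, so the P450 count lay near the background. The median difference of the P450 genes was -0.10 and that of all genes -0.09. Different probes of one gene differed by a pooled SD of 0.50 over 370 genes in this comparison. Beyond that SD lay Cyp2g1, Cyp20a1, Cyp51, Cyp1a2 and Cyp4b1-ps2 upward and Cyp4f39, Cyp2c39, Cyp2b13 and Cyp2c66 downward. Cyp51 was at 2-fold or more under 2 alternatives and Cyp20a1 under 1. With limma's own background estimate Cyp20a1 differed by 0.07, Cyp4f39 by -0.18, Cyp2c39 by -0.05, Cyp2b13 by -0.04 and Cyp2c66 by -0.03.

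By role, the 6 measured genes of the subfamilies 2a, 2b, 2f, 2g, 2s and 2ab ranged from -0.64 for Cyp2b13 to 1.79 for Cyp2g1, with 3 above and 3 below 0. Cyp2e1, also on chromosome 7, is not in this group and differed by -0.09. Cyp2b13 was not detected on the ECRS_WT-labelled array. The 9 measured family 4 genes ranged from -0.74 to 0.52, with 5 below 0. Of all 7330 genes detected on both arrays 4382 lay below 0. Of the 4 sterol genes 3 were above 0, with Cyp39a1 at 0.45 and Cyp27a1 at 0.21 beside Cyp51, and Cyp7b1 was at -0.15.

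The comparison of ECRS_KO with ECRS_WT concerns the knockout of CC10 in diseased mice. Cyp4a12a was 2.13-fold lower on the ECRS_KO-labelled array and Cyp7b1 2.01-fold lower, and no P450 gene was at least 2-fold higher. Cyp2b10 was 1.73-fold lower, Cyp4b1-ps2 1.60-fold, Cyp2e1 1.56-fold and Cyp1a2 1.51-fold lower. Cyp2g1 was 1.69-fold higher, the largest difference upward among P450 genes detected on both arrays. Of 31 P450 genes measured, 2 were lower and none higher, where 2.35% of all 8919 genes were called lower and 4.72% higher, so that the counts again say little about the P450 genes. The median was -0.21 for the P450 genes and -0.04 for all genes. Of 24 P450 genes detected on both arrays 5 were above 0 (20.8%), against 44.0% of all genes. Probes of one gene differed here by a pooled SD of 0.29 over 491 genes. Under median scaling no P450 gene was at least 2-fold lower, and with limma's own background estimate and in the authors' deposited values only Cyp4a12a was.

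All 4 sterol genes lay below 0 in this comparison, between -1.01 for Cyp7b1 and -0.05 for Cyp39a1, with Cyp51 at -0.48 and Cyp27a1 at -0.42. The difference of Cyp39a1 was smaller than the pooled SD of 0.29 and turned to 0.18 under median scaling. Of 10 measured family 4 genes 8 lay below 0. The exceptions were Cyp4v3 at 0.07 and Cyp4f40 at 0.52, and under median scaling Cyp4f15 too was above 0, at 0.01. Of all 7762 genes detected on both arrays 4339 lay below 0. Cyp4f40 was not detected on the ECRS_WT-labelled array and differed by 0.03 with limma's own background estimate. Of the 6 measured genes of the subfamilies 2a, 2b, 2f, 2g, 2s and 2ab, Cyp2g1 and Cyp2b19 were above 0, at 0.76 and 0.19, and Cyp2f2 differed by -0.05.

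The comparison of ECRS_KO with control_WT joins disease and genotype and shares an array with each of the others. Cyp2g1 was 5.85-fold higher on the ECRS_KO-labelled array. Cyp4f39 was 2.51-fold lower, Cyp7b1 2.24-fold lower and Cyp2c39, not detected on the ECRS_KO-labelled array, 2.06-fold lower. Cyp7b1 lies on chromosome 3, Cyp4f39 on chromosome 17 and Cyp2c39 on chromosome 19. Below 2-fold, Cyp2b10 was 1.86-fold and Cyp4f13 1.72-fold lower, and Cyp51 was 1.37-fold higher. The second probe of Cyp2b10 differed by 0.29 where the first differed by -0.89, and the mean over both probes by -0.30. Of 30 P450 genes measured 1 was higher and 3 lower, beside 6.91% higher and 5.69% lower among all 9085 genes, and a count of this size says little about the P450 genes. The median was -0.20 against -0.11 for all genes, and the pooled SD between probes of one gene was 0.58 over 365 genes. Under median scaling no P450 gene was at least 2-fold lower. The authors' deposited values kept Cyp7b1 alone, and limma's own background estimate gave Cyp2b10, Cyp2e1 and Cyp4f13 in place of the 3 genes named, with Cyp2c39 at -0.07 and Cyp4f39 at -0.26.

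**Figure D3:**
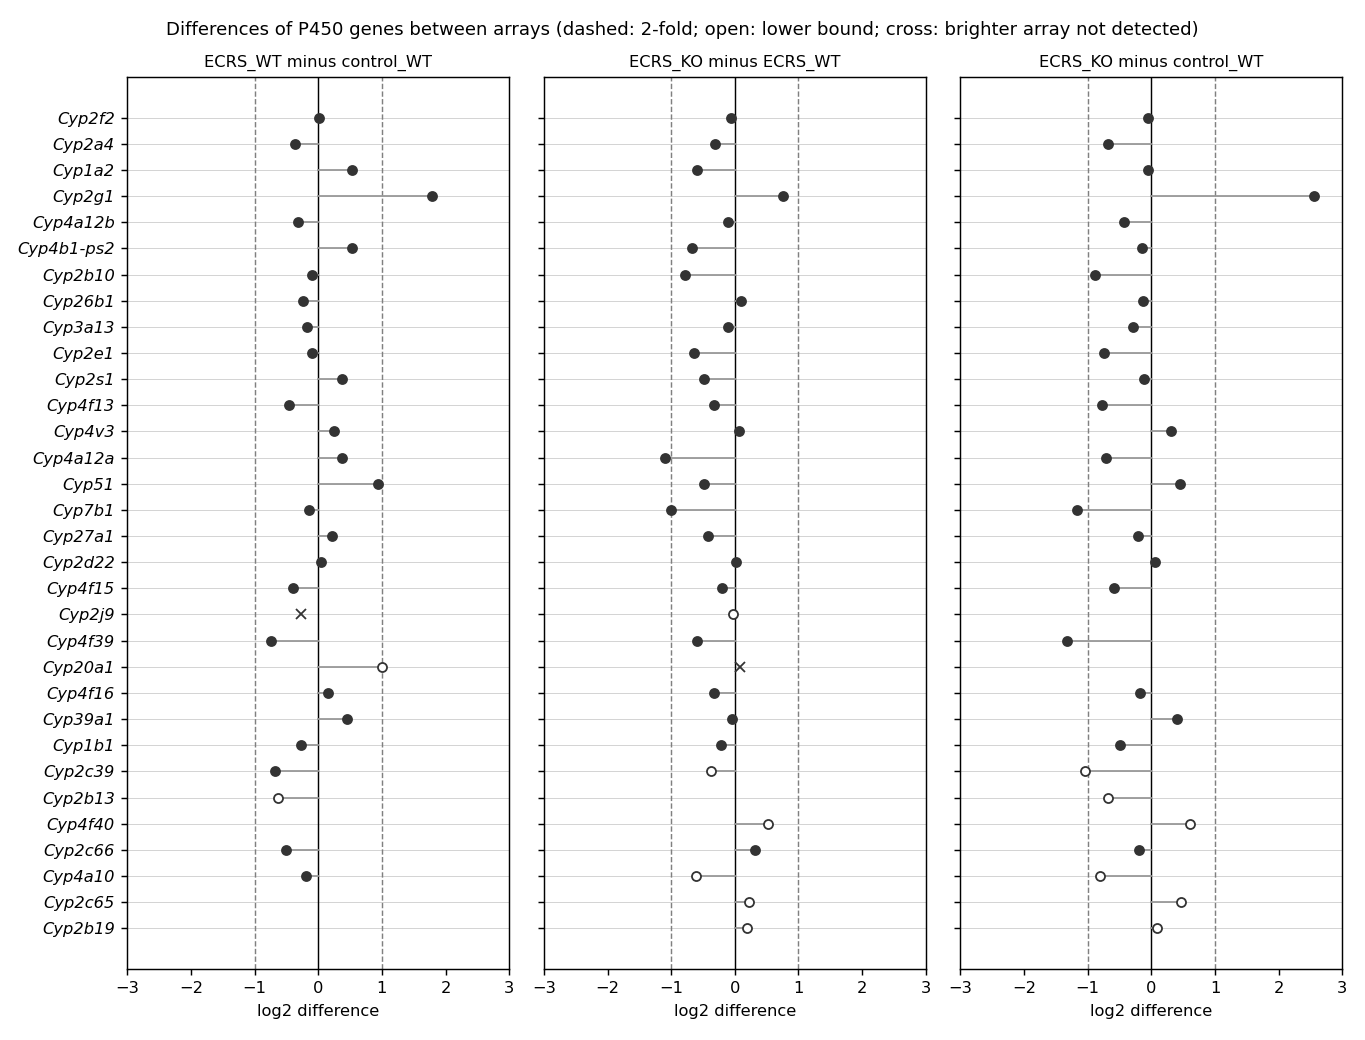
Difference of levels on the log2 scale (x axis) of each P450 gene (y axis) for the 3 pairs of arrays, with dashed lines at 2-fold. Open symbols, titled lower bounds in the figure, are genes detected on 1 of the 2 arrays. Their difference is a lower bound only where the least level of detected probes was used. Crosses mark genes not detected on the brighter array, and a missing symbol marks a gene detected on neither. Cyp2g1 lies at 1.79, 0.76 and 2.55.

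**Figure D4:**
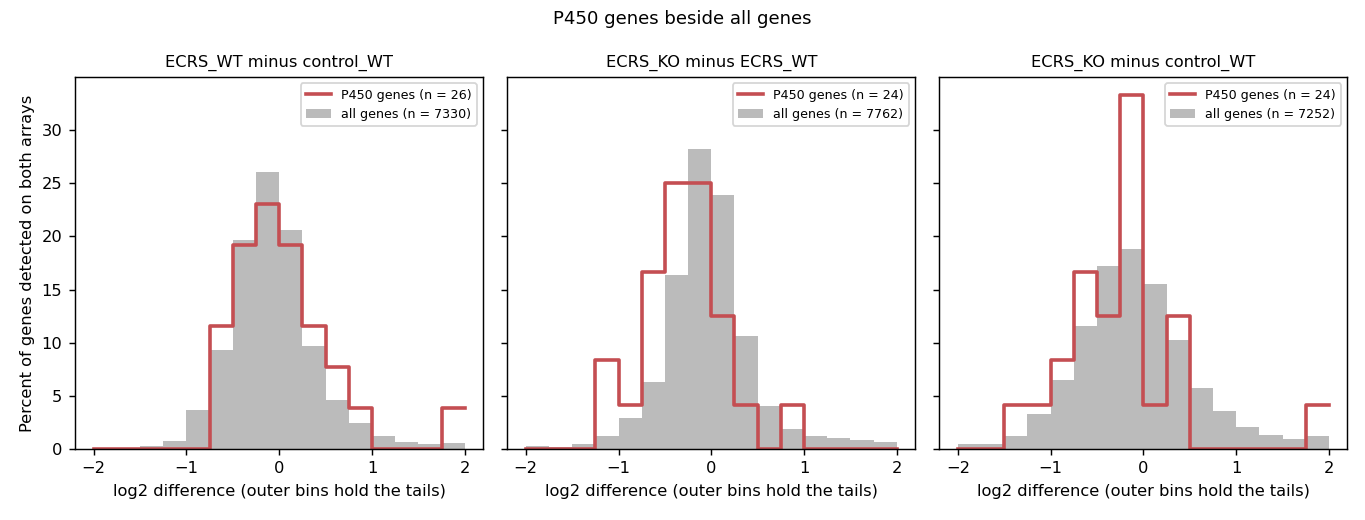
Percent of genes (y axis) in steps of the log2 difference (x axis) among genes detected on both arrays of each pair, with all genes as grey bars, P450 genes as a red line and the tails in the outer steps. The 24 P450 genes lie further to the left than all genes in ECRS_KO minus ECRS_WT, where 20.8% were above 0 against 44.0%.

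The order of the 3 arrays was also counted for each gene detected on all of them. The level was highest on the control_WT-labelled array for 12 of 24 P450 genes and for 47.1% of 7053 genes. It was highest on the ECRS_WT-labelled array for 9 P450 genes, against 24.2% of all genes, and on the ECRS_KO-labelled array for 3, against 28.7%. Those 3 were Cyp2g1, Cyp4v3 and Cyp2d22. The level was lowest on the ECRS_KO-labelled array for 17 of 24 P450 genes and for 44.6% of all genes. These orders were counted on quantile-normalized levels only. Under median scaling not all 17 stayed lowest there. Cyp2s1 and Cyp27a1 then lay above the control_WT-labelled array, by 0.16 and 0.22. Cyp3a13 and Cyp4f15 then lay above the ECRS_WT-labelled array, by 0.03 and 0.01.

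Markers of olfactory cells are given beside the values of Cyp2g1. Of 10 olfactory neuron markers, 3 were at least 2-fold higher on the ECRS_WT-labelled array than on the control_WT-labelled array, and 9 were at least 2-fold higher on the ECRS_KO-labelled array than on the ECRS_WT-labelled array. Their summed signals were 25278, 28988 and 75775 on the control_WT-, ECRS_WT- and ECRS_KO-labelled arrays. Stoml3, a membrane protein of olfactory cilia, was 2.59-fold and then 3.60-fold higher, while Omp stayed within 0.19 on the log2 scale. Of 9 markers of supporting cells and Bowman's glands other than P450 genes, 8 had a probe and 5 were detected. Only Ugt2a1, a glucuronosyltransferase of the olfactory epithelium, was at least 2-fold higher, by 5.09-fold on the ECRS_WT-labelled array and by 5.88-fold on the ECRS_KO-labelled array against the control_WT-labelled array. Cbr2, Gstm2, Krt18 and Muc5b differed from the control_WT-labelled array by between -0.87 and 0.02. Their summed signals, with the markers not detected, were 51305, 45778 and 50384. The part of these cells in the Cyp2g1 values was not tested, and in pooled tissue more cells of a type cannot be told apart from more RNA per cell.

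Ciliated cell markers, which stand for respiratory epithelium, had medians of -0.32 in ECRS_WT against control_WT and -0.47 in ECRS_KO against ECRS_WT over 6 measured genes. Against the control_WT-labelled array, Tppp3 was 2.67-fold and Ccdc113 2.21-fold lower on the ECRS_KO-labelled array, and the list's summed signals were 10148, 10511 and 11282. Nasal gland genes went both ways. Bpifb9b was at least 47.5-fold lower, Pip 2.06-fold and Obp1a 2.14-fold lower on the ECRS_WT-labelled array than on the control_WT-labelled array. Dcpp1, not detected on the control_WT-labelled array, was 2.37-fold higher. Between ECRS_KO and ECRS_WT, Bpifb9b, Obp1a and Pip were higher, by at least 20.6-fold, 2.17-fold and 3.24-fold. Summed signals of the nasal gland list were 58789, 56196 and 72485.5. Their part in the P450 values was not tested.

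**Figure D5:**
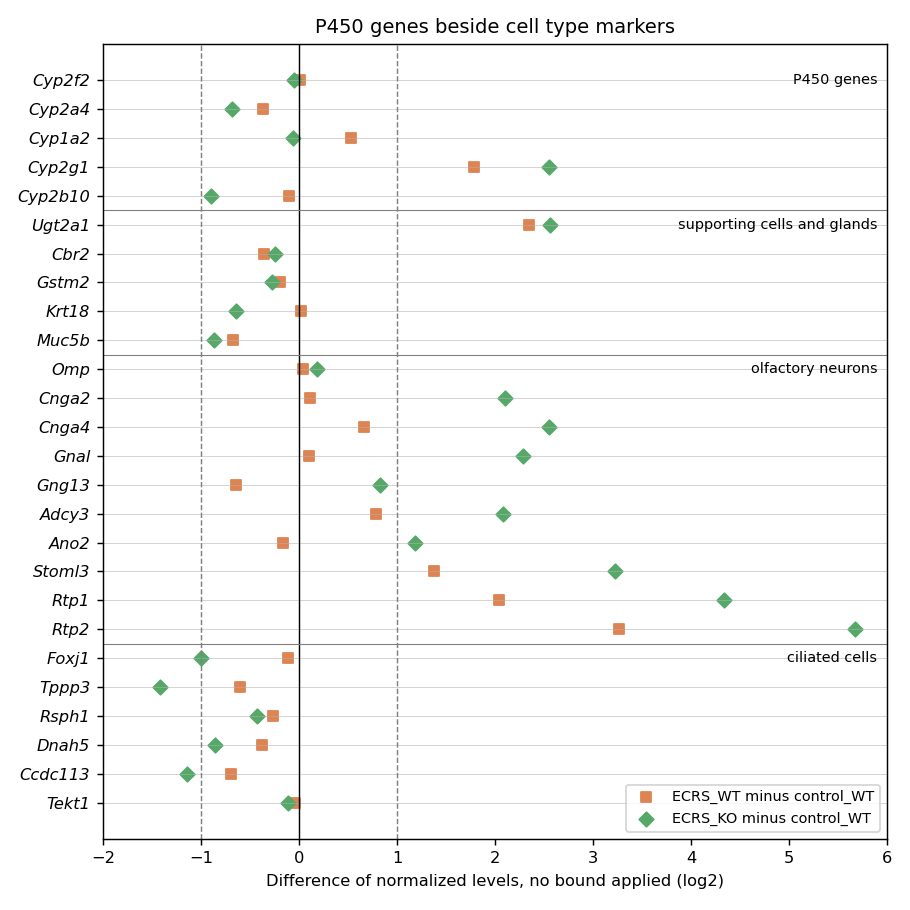
Difference of levels from the control_WT-labelled array on the log2 scale (x axis) for 5 P450 genes and for the detected markers of supporting cells and glands, olfactory neurons and ciliated cells (y axis). Squares are the ECRS_WT-labelled array and diamonds the ECRS_KO-labelled array, with dashed lines at 2-fold. Cyp2g1, Ugt2a1 and the neuron markers Stoml3, Rtp1 and Rtp2 lie beyond 2-fold on both arrays. On the ECRS_KO-labelled array 8 of 10 neuron markers were at least 2-fold higher, unlike Omp. After quantile normalization Cyp2f2 and Omp lie near 0 and Cbr2 at -0.35 and -0.24. Under median scaling Cyp2f2 differed from control_WT by -0.29 and -0.61.

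P450 enzymes depend on redox partners, on haem and on receptors that control their genes. Of 8 redox partners 5 had a probe and 4 were measured in each comparison, none of them at 2-fold. Cyb5a, cytochrome b5, had signals of 16792, 19050 and 21169 on the control_WT-, ECRS_WT- and ECRS_KO-labelled arrays, with differences of -0.04 and 0.03 in the disease and genotype comparisons, and the outer mitochondrial form Cyb5b differed by 0.25 and -0.18. Of the genes of haem synthesis and breakdown, 8 were measured in ECRS_WT against control_WT with 1 higher and none lower, at a median of -0.28. Uros, an enzyme of haem synthesis, was 2.11-fold higher, with signals of 44.3, 181 and 353. Alas1, the rate-limiting enzyme of haem synthesis, was within 0.49 on the log2 scale over the arrays. In ECRS_KO against ECRS_WT none of 9 was at 2-fold, and in ECRS_KO against control_WT the biliverdin reductase gene Blvrb was 2.23-fold lower and Uros 2.84-fold higher.

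Of 20 receptors and factors that control P450 genes 17 had a probe and 8 were detected. Rarg, a retinoic acid receptor, was 4.79-fold higher on the ECRS_WT-labelled array than on the control_WT-labelled array, with signals of 27.5, 286 and 448. Ppara, which controls Cyp4a genes in liver, was at least 2.06-fold lower on the ECRS_KO-labelled array than on the control_WT-labelled array. It was dim, at signals of 28.2, 42.4 and 10.6, and was not detected on the ECRS_KO-labelled array. Ahr and Nr1i2, the receptors for aromatic hydrocarbons and for many drugs, were detected on no array, and Nr1i3, which mediates the phenobarbital response of Cyp2b10, has no named probe. Of 12 other oxidative enzymes of foreign compounds 11 had a probe and 6 were detected on at least 1 array, and none of these 6 reached 2-fold. Nqo1 and Maob of this list were bright but not detected and so not counted. The signals of Nqo1 were 234, 1497 and 5344 on the control_WT-, ECRS_WT- and ECRS_KO-labelled arrays. Aox3, an aldehyde oxidase, had signals of 8020, 9404 and 8709, and the microsomal epoxide hydrolase gene Ephx1 6231, 8327 and 6835. Of the 2 enzymes of P450 type that carry other symbols, Ptgis, prostacyclin synthase, differed by -0.66 and -0.20 in the disease and genotype comparisons, and Tbxas1 was not detected.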

How the data were processed

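RNA pools of sinonasal mucosa, 1 for each group named in the labels, were measured on 3 Illumina bead arrays. Per the file headers, the deposited non-normalized table pairs the intensity of each of 35226 probes with its detection p-value. The authors' series table holds normalized intensity on a linear scale, and how it was normalized is not given in the sources used here. The submitters' processing notes name BeadStudio, with no version. Neither the build nor the annotation used by the authors is known here.

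The non-normalized table was read into R 4.3.3, where limma 3.58.1 gave the levels. Negative controls, absent from the table, were estimated by taking median signals within 100 bins of detection p-values, with SDs of 9.18, 13.7 and 16.8. Limma's own estimate, with SDs of 259.6, 356 and 361, was an alternative. It takes detection to follow the signal, whereas 153, 178 and 222 probes brighter than 1000 were not detected. After normexp with an offset of 16, the arrays were quantile normalized and log2 was taken. Genes were measured where detected (detection p-value under 0.01) on at least 1 array of a pair, and a 2-fold difference counted where the brighter array detected the gene. For a gene missing detection on the dimmer array, the higher of its level and the least level among detected probes there (5.19, 5.05 and 5.00) was used. Where that least level was used, the fold is a lower bound under this background estimate. Otherwise the fold is the plain ratio to the gene's own level.

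Of the probes, 20571 had 1 gene symbol, 10 several and 14645 none, and 20525 matched the RefSeq gene table of GRCm38.p6 by Entrez identifier, among them those of all 77 P450 genes. The probe of highest mean signal stood for a gene. Genes were named by rule: the 3 markers, the 12 P450 genes of highest mean level, those at 2-fold or more, those detected on 1 or 2 arrays, and from each list the genes at 2-fold or more or else the 2 of highest level. Other genes named were chosen after their values were seen. The members and lists were chosen with earlier results of these data known. The steps were tested on simulated data. Of 50 probes each, 4 were called higher at a true 1.5-fold, 20 at 2-fold, 48 at 3-fold and 50 at 4-fold. A true 2-fold change lies at the threshold, so many calls near 2-fold are missed by the rule itself. Of 14338 unchanged probes measured, 12 were called higher and 15 lower. The noise was a chosen setting, not estimated from these arrays and without differences between mice. These counts are therefore no error rate for these data. Detection followed the signal in the simulation, unlike in these files. Tables were made with pandas 2.3.3 and numpy 2.4.6 under Python 3.11.15 and figures with matplotlib 3.10.9, and 6 alternatives were tried.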

Additional observations from a re-analysis of the deposited data

How the results depend on the processing

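Cyp2g1 was at least 2-fold higher in both comparisons with control_WT under all 6 alternatives, with differences of 1.79 to 1.94 for ECRS_WT and 2.55 to 2.73 for ECRS_KO on the log2 scale, and it differed by 0.73 to 0.83 between ECRS_KO and ECRS_WT. Counts of P450 genes at 2-fold or more moved in 9 of 36 cases. In ECRS_WT against control_WT, 2 genes were higher with limma's own background estimate and 3 under median scaling, against 1 in the values reported. In ECRS_KO against ECRS_WT, 1 gene was lower under limma's own estimate, 0 under median scaling and 1 in the authors' deposited values, against 2. In ECRS_KO against control_WT, 2 were higher with a detection p-value under 0.05 and 2 without a detection filter, against 1, and 0 were lower under median scaling and 1 in the authors' deposited values, against 3. The cause was not tested. Median scaling moved the all-gene median, over genes with detection on both arrays, from -0.09 to 0.10, from -0.05 to 0.13 and from -0.13 to 0.24 in the 3 comparisons, and the P450 medians to 0.02, -0.12 and -0.03. Relative to all genes measured the P450 medians then stood at 0.02 beside 0.11, -0.12 beside 0.14 and -0.03 beside 0.26. With limma's own estimate Cyp4f39 differed by -0.26 and Cyp2c39 by -0.07 between ECRS_KO and control_WT. Of 540 values of single genes 20 moved by more than the spread between probes of a gene and none of the called values changed sign. Many could not move. The detection p-value under 0.05, the lack of a filter and the mean over probes leave a gene with 1 probe unchanged. The exception is a gene whose level was replaced by the least level of detected probes. Cyp2g1 has 1 probe, so these alternatives repeat its reported values. With the mean over its probes Cyp2b10 differed by 0.45 in ECRS_WT against control_WT. Over all genes, the counts higher and lower were 330 and 123, 421 and 210, and 628 and 517 in the 3 comparisons as reported, 108 and 41, 144 and 81, and 213 and 148 with limma's own estimate, 515 and 43, 564 and 126, and 1278 and 130 under median scaling, and 128 and 42, 212 and 95, and 295 and 221 in the authors' values. A single array per group limits the precision of every value. No paired analysis was possible because each group has 1 array and no test was made.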

Other observations

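Some enzymes that act beside the P450 family were bright without counting as detected, and were chosen here after their values were seen. Nqo1, a quinone reductase, had signals of 234 on the control_WT-labelled array, 1497 on the ECRS_WT-labelled array and 5344 on the ECRS_KO-labelled array, with detection p-values of 0.12, 0.09 and 0.08. Maob, a monoamine oxidase, had signals of 1045, 2205 and 2875 on the same arrays, with detection p-values of 0.11, 0.17 and 0.05. Both were left out of every count of genes measured.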
